A study of Collinsia rattanii with 18 samples.

Results

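Late floral buds of the outcrossing plant *C. linearis* were compared with late floral buds of its selfing sister species *C. rattanii*. The comparison used the 6 libraries of bud stage B3 among the 18 libraries of the study, chosen by the species and stage in the sample labels, with 3 plants per species. B3 is the last stage before the flower opens, and each library pooled 2 to 4 whole buds of 1 plant. The *C. linearis* B3 group held plants 1, 2 and 3 of that species, and the *C. rattanii* B3 group held plants 1, 2 and 3 of the other. The plants of both species descended from wild populations, were raised in the same way and received no treatment, and the same plants also gave buds at the early stage B1 and the middle stage B2. There were 2 source populations per species, and the labels do not say which plant came from which. Stages were set separately in each species by organ size and colour, so that B3 buds had violet petals in *C. rattanii* and white petals in *C. linearis*. The comparison asked how gene expression in a bud about to open differs between an outcrossing species and its selfing sister. With 1 species of each kind, mating system cannot be told apart from other differences between the species.

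Selfing species commonly carry smaller flowers, fewer pollen grains per ovule and a shorter time between bud opening and contact of anther and stigma, a set of traits called the selfing syndrome. In *Collinsia* the stigma of the selfer becomes receptive at about the time the first anther opens, whereas in the outcrosser it does so later. In a late bud of a flowering plant, pollen matures in the anthers while petals, filaments and style elongate by loosening and rebuilding their cell walls.

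Expression was measured as counts of RNA-seq reads per gene, and the reads of both species were aligned to the *C. rattanii* genome. A lower value in *C. linearis* can therefore stand for less RNA or for reads that align less well, and these cannot be told apart here. The study found no species difference in the percentage of uniquely mapped reads, a figure for whole libraries rather than for single genes. In whole buds, fewer cells of a type and less RNA per cell also cannot be told apart. The count table identifies genes without names or positions, so tissue markers were not checked, and functions are given for only 19 genes, a selection from those with a stated function.

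The B3 libraries held 24713277 to 34266614 counts each (median in *C. linearis* 27661030, median in *C. rattanii* 28896358). Ranked gene expression correlated between 0.904 and 0.956 for pairs of *C. linearis* B3 libraries, between 0.940 and 0.981 for pairs of *C. rattanii* B3 libraries, and between 0.742 and 0.867 across species (Spearman's rho across genes, which are not independent replicates). The library of *C. linearis* plant 2 stood apart. Its TMM factor, the scaling that corrects a library's total for genes that take an unusual share of the counts, was 0.497, against 0.946 to 1.13 in the other 5 B3 libraries.

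Of 46127 genes in the table, 27837 had enough counts to be tested. At a false discovery rate (FDR) of 0.01 in edgeR's quasi-likelihood test, 4168 genes differed between the species at B3, which is 15.0% of the genes tested. Of these, 1934 genes (6.95%) were higher in *C. linearis* and 2234 genes (8.03%) were higher in *C. rattanii*. The difference was large in most of them. On the log2 scale its median was 3.80 among genes higher in *C. linearis* and -3.84 among genes higher in *C. rattanii*, whereas the median over all genes tested was -0.02. At least a 4-fold difference (2 on the log2 scale) was found in 79.2% of the former and 68.4% of the latter. The called genes include 433 with reads at B3 in *C. rattanii* only and 89 with reads in *C. linearis* only, as defined below. A count of 0 gives only a lower bound, so the fitted differences of these genes are not measured sizes.

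**Figure D1:**
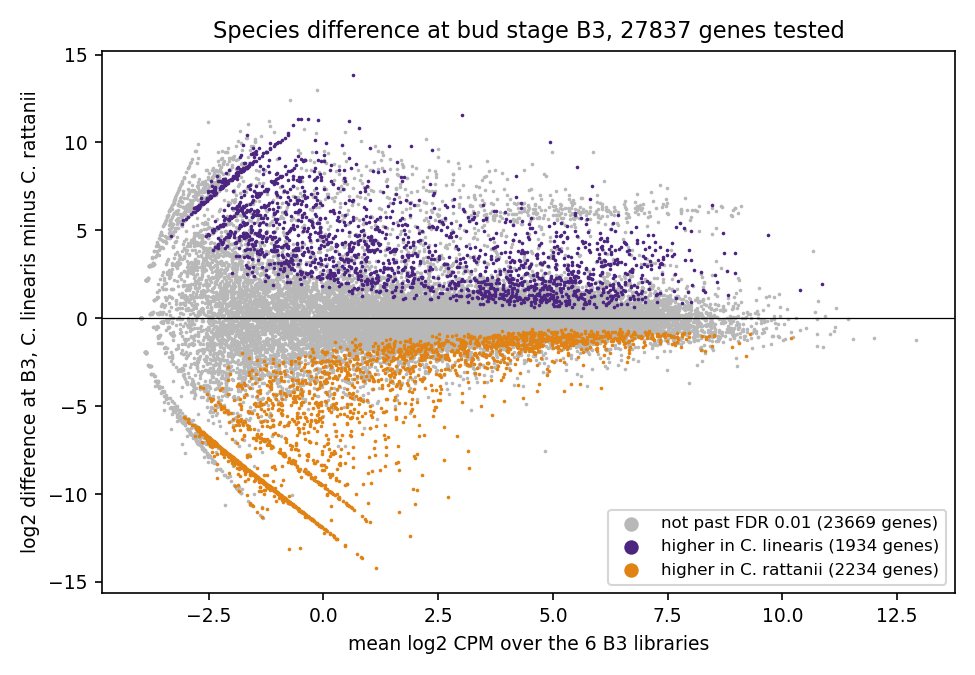
Species difference at bud stage B3 for each of 27837 genes. The x axis is the mean log2 CPM (counts per 1000000 counts) over the 6 B3 libraries, and the y axis is the log2 difference, *C. linearis* minus *C. rattanii*. Each point is 1 gene, in purple for the 1934 genes higher in *C. linearis* at FDR 0.01, in orange for the 2234 higher in *C. rattanii*, and in grey for the rest. Grey points form a band near 6 on the log2 scale among abundant genes, and few points lie at the same distance below 0.

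Values of all 3 plants of one species lay above all 3 plants of the other in 14097 genes (50.6% of those tested), with *C. linearis* higher in 6726 (24.2%) and *C. rattanii* higher in 7371 (26.5%). Among the genes past the threshold, the species did not overlap in 1927 genes higher in *C. linearis* and 2190 genes higher in *C. rattanii*, and they overlapped in 51. An unadjusted p below 0.05 was reached by 12051 genes (43.3%). DESeq2's Wald test at the same FDR called 26.2% of the genes it tested, 4155 (14.3%) higher in *C. linearis* and 3476 (11.9%) higher in *C. rattanii*. Of the edgeR calls, DESeq2 also called 1930 and 2228.

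The edgeR counts depended on single libraries. Genes higher in *C. linearis* numbered 1019 without the B3 library of *C. linearis* plant 2, and 764, 834 and 1161 without those of *C. rattanii* plants 1, 2 and 3. Genes higher in *C. rattanii* numbered 1336 and 1310 without the libraries of *C. linearis* plants 1 and 2, and 1471 without that of *C. rattanii* plant 1. None of these fits called a gene in the direction opposite to its main call. Changes of sign that missed the threshold were not counted. With library totals as the only scaling, the median over all genes moved to -0.40, which put 1272 genes higher in *C. linearis* and 2222 higher in *C. rattanii*. The share of calls higher in *C. rattanii* was 63.6% under that scaling and 53.6% under TMM.

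Genes were split into 4 equal groups by their mean level over the 6 B3 libraries in CPM, counts per 1000000 counts of the TMM-scaled total. In the second group, with 1.74 to 10.2 CPM, *C. linearis* was higher in 520 genes and *C. rattanii* in 830. In the most abundant group, from 35.0 CPM upwards, the counts were 494 and 313 in the same order. From the least to the most abundant group, *C. rattanii* was the higher species in 53.0%, 61.5%, 56.2% and 38.8% of the calls, against 53.6% over all calls. The most abundant genes were the only group in which *C. linearis* was more often the higher species, and the groups showed no steady trend.

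Among those 6960 most abundant genes, differences of 16-fold or more (4 on the log2 scale) lay almost all on one side. Of these, 520 genes had higher fitted levels in *C. linearis*, and 22 had higher fitted levels in *C. rattanii*. All *C. linearis* plants were above all *C. rattanii* plants in 518 of the 520 genes, against 24.2% of all genes tested, a contrast built in by the choice of genes. The median level of the 520 genes was 137, 754 and 78.4 CPM in *C. linearis* plants 1, 2 and 3. In *C. rattanii* it was 5.28, 10.2 and 1.15 CPM in plants 1, 2 and 3. Every *C. linearis* median was thus well above every *C. rattanii* median, and plant 2 was far above the other *C. linearis* plants.

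These 520 genes were chosen by the size of the B3 difference, so their values are a description. Of them, 126 passed edgeR's FDR of 0.01, and 494 of all 6960 genes of this abundance were called higher in *C. linearis*. DESeq2 called 511 of the 520 at the same FDR, and it called 14.3% of all genes it tested higher in *C. linearis*. The highest of the 6 libraries was *C. linearis* plant 2 in 502 of the 520 genes. Refitted without that library, the median difference of the 520 genes was 4.41 on the log2 scale rather than 6.03, with 514 genes at 2 or more, 361 at 4 or more and 36 past the FDR of 0.01. At B1 and B2 the median difference of the same genes was 1.31 and 2.90 on the log2 scale. The 22 genes higher in *C. rattanii* had medians of -6.07 at B1, -4.08 at B2 and -7.53 at B3, so their difference was already large in young buds.

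A few abundant genes took a larger part of all counts in 1 *C. linearis* plant. The 50 most abundant genes of each library held 11.2%, 22.8% and 9.95% of its counts in *C. linearis* plants 1, 2 and 3. In *C. rattanii* the share was 10.8%, 11.1% and 10.5% in plants 1, 2 and 3. The species overlapped, and only *C. linearis* plant 2 lay apart. The mean share was 3.85 percentage points higher in *C. linearis* (two-sided exact permutation test over 3 plants per species, p = 0.7, smallest possible 0.1), and -0.24 points without that plant.

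**Figure D2:**
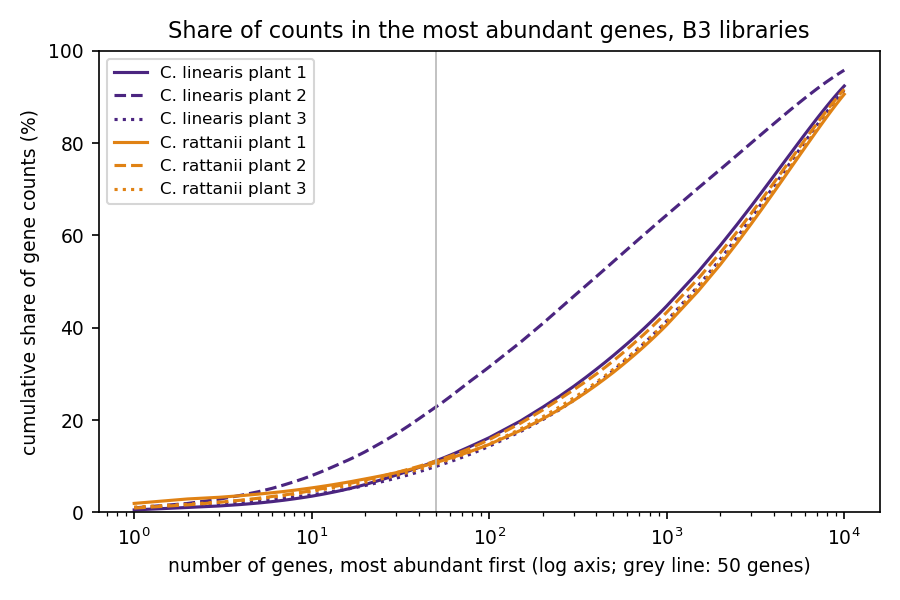
Cumulative share of gene counts against the number of genes, ordered from the most abundant gene of each library, for the 6 B3 libraries. The x axis is logarithmic, the y axis is in percent of all gene counts, and the grey line marks 50 genes. The dashed purple curve of *C. linearis* plant 2 reaches 22.8% at 50 genes, and the other 5 curves pass between 9.95% and 11.2% there.

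The 50 genes that were most abundant in *C. linearis* plant 2 were followed in the other libraries. They held 8.55% and 5.79% of the counts in B3 buds of *C. linearis* plants 1 and 3, and 0.423%, 0.735% and 0.208% in those of *C. rattanii* plants 1, 2 and 3. All *C. linearis* plants were above all *C. rattanii* plants in each of the 50 genes, against 24.2% of all genes tested. Choosing genes by a high level in a *C. linearis* library favours this contrast, so these values are a description. The TMM factor of 0.497 raises the CPM of plant 2, whereas the shares given here are of unscaled counts. In TMM-scaled CPM, 47 of the 50 genes were at least 4-fold above both other *C. linearis* plants in plant 2. In B2 buds their share was 5.13%, 12.8% and 4.95% in *C. linearis* plants 1, 2 and 3. In B1 buds it was 4.55%, 0.492% and 0.264%, so plant 2 was the highest *C. linearis* plant at B2 and B3 and plant 1 at B1. At an FDR of 0.01 edgeR called 4 of the 50 higher in *C. linearis*, near its share of 6.95% over all genes. DESeq2 called 49, against 14.3% over all genes, and the choice of genes favours such calls.

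The most abundant gene of this kind was RCORA89390, whose identifier carries no function in the sources used here. Its level was 3389, 19690 and 2031 CPM in *C. linearis* plants 1, 2 and 3, and 92.0, 225 and 5.67 CPM in *C. rattanii* plants 1, 2 and 3. The species did not overlap, but plants within each species differed many-fold. The difference was 6.28 ± 2.35 on the log2 scale (SE, edgeR FDR = 0.0547, DESeq2 FDR = 0.000507), so only DESeq2 placed it past the threshold. The gene with the next highest mean in *C. linearis*, RCORA156610, had 3408, 19500 and 1793 CPM in *C. linearis* plants 1, 2 and 3. Its near-equal profile leaves the split of reads between these 2 genes uncertain if they are close copies, which was not tested.

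RCORA184251 was the most abundant gene of *C. linearis* plant 1. Its level was 5749, 8419 and 5640 CPM in *C. linearis* plants 1, 2 and 3, and 331, 786 and 270 CPM in *C. rattanii* plants 1, 2 and 3. All plants of *C. linearis* were several-fold above all plants of *C. rattanii*. The difference of 3.84 ± 1.26 on the log2 scale (SE) missed edgeR's threshold (FDR = 0.0325) and passed that of DESeq2 (FDR = 0.00125). RCORA38539 was the most abundant gene in all 3 *C. rattanii* plants and in *C. linearis* plant 3. It reached 17380, 9255 and 10780 CPM in *C. rattanii* plants 1, 2 and 3, and 5633, 2870 and 7439 CPM in *C. linearis* plants 1, 2 and 3. The lowest *C. rattanii* plant exceeded the highest *C. linearis* plant, but the difference was within the spread the model allows (-1.23 ± 0.71 on the log2 scale, SE, edgeR FDR = 0.196).

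Single genes with counts in every B3 library show the size of the called differences. RCORA76506 had 648, 481 and 2195 CPM in *C. linearis* plants 1, 2 and 3, and 1.26, 0.710 and 1.15 CPM in *C. rattanii* plants 1, 2 and 3. It was high in every *C. linearis* plant and barely present in *C. rattanii*, with a difference of 10.05 ± 0.89 on the log2 scale (SE, edgeR FDR = 3.6e-06). Its difference was already 8.57 at B1 and 8.04 at B2. In the other direction, RCORA121251 had 50.9, 39.7 and 72.9 CPM in *C. rattanii* plants 1, 2 and 3, and 0.489, 1.41 and 0.384 CPM in *C. linearis* plants 1, 2 and 3. The *C. rattanii* plants were similar to each other and all far above *C. linearis* (-6.20 ± 0.59 on the log2 scale, SE, edgeR FDR = 6.01e-06). Both calls held when any 1 of the 6 B3 libraries was left out.

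Other large differences varied more between plants of the higher species. RCORA01517 had 544, 3140 and 230 CPM in *C. linearis* plants 1, 2 and 3, and 3.27, 5.29 and 1.31 CPM in *C. rattanii* plants 1, 2 and 3. *C. linearis* plant 2 was the highest, and plants 1 and 3 were also far above every *C. rattanii* plant. The difference was 8.63 ± 1.94 on the log2 scale (SE, edgeR FDR = 0.00484), and 6.86 (edgeR FDR = 0.0163) without *C. linearis* plant 2. RCORA56904 had 8.82, 3.75 and 99.2 CPM in *C. rattanii* plants 1, 2 and 3, and 0.489, 0.763 and 0.978 CPM in *C. linearis* plants 1, 2 and 3. *C. rattanii* plant 3 was far above the other *C. rattanii* plants, which were still above every *C. linearis* plant, and the difference of -5.64 ± 1.297 on the log2 scale (SE, edgeR FDR = 0.00551) shrank to -3.07 (edgeR FDR = 0.0385) without it. Each of these calls was past the threshold in 2 of the 6 fits that left out 1 B3 library, with FDR up to 0.0257 for RCORA01517 and 0.0385 for RCORA56904.

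Some genes had reads in one species only. In *C. rattanii*, 457 genes had at least 10 counts in each of the 3 B3 libraries and 0 counts in all 3 *C. linearis* B3 libraries. The reverse held for 107 genes. The study built its gene models with *C. rattanii* RNA-seq samples of this same set and proteins of another plant. A gene expressed only in *C. linearis* may therefore lack a model, and *C. linearis* reads may align less well. How far this shapes the 457 and 107 genes was not tested. The 457 genes had a median of 2.44 CPM in *C. rattanii* and a highest level of 76.0 CPM. The 107 genes had a median of 1.52 CPM in *C. linearis* and a highest level of 57.6 CPM. Most were therefore lowly expressed, with 48 and 6 genes above 10 CPM.

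A count of 0 over a group of 3 libraries allows up to 3 counts, or 0.0427 CPM in *C. linearis* and 0.0334 CPM in *C. rattanii*, a limit that covers counting error only. Against that limit, the genes read only in *C. rattanii* were at least 9.19-fold higher there, with a median bound of 57.0-fold. Genes read only in *C. linearis* were at least 16.0-fold higher, with a median bound of 45.6-fold. Of the former, 258 also had no count in *C. linearis* at B1 and B2, and of the latter, 27 had none in *C. rattanii* at those stages. The rule applies to every library, so leaving out a library can only keep or raise these counts. Without *C. linearis* plant 3, 696 genes were read only in *C. rattanii*. Genes read only in *C. linearis* numbered 224 without *C. linearis* plant 3, 166 without *C. rattanii* plant 1 and 187 without *C. rattanii* plant 3.

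The B3 differences were next set beside those of younger buds of the same plants, which come from other libraries. At the same FDR, B1 buds had 1901 genes (6.83%) higher in *C. linearis* and 2475 genes (8.89%) higher in *C. rattanii*. B2 buds had 2704 genes (9.71%) and 2857 genes (10.3%) in the same order. Of the 2234 genes higher in *C. rattanii* at B3, 1403 (62.8%) were also called higher in *C. rattanii* at both earlier stages. Of the 1934 genes higher in *C. linearis* at B3, 843 (43.6%) were called so at every stage. Only 8 and 2 genes were called in opposite directions at B3 and an earlier stage, in the order *C. linearis* higher and *C. rattanii* higher at B3.

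Called at B3 and at neither earlier stage were 796 genes (41.2%) of those higher in *C. linearis* and 373 genes (16.7%) of those higher in *C. rattanii*. These were chosen for missing the threshold earlier, so a smaller earlier difference is built in. Their median difference was 0.51 at B1, 1.03 at B2 and 2.86 at B3 on the log2 scale for the 796 genes. For the 373 genes it was -0.44, -0.76 and -1.47 in the same order.

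The change of the species difference was tested directly, as the difference at B3 minus the mean of the differences at B1 and B2. No gene passed an FDR of 0.01 in edgeR (0 of 27837 genes, 0%). At an unadjusted p below 0.05 there were 5159 genes (18.5%), and at an FDR of 0.05 there were 251 (0.902%). DESeq2 called 885 genes (3.36% of those it tested) at an FDR of 0.01, of which 579 shifted toward *C. linearis* at B3 and 306 toward *C. rattanii*. In edgeR, 42 genes passed without the B3 library of *C. linearis* plant 3 and 12 without the B1 library of *C. linearis* plant 1.

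RCORA128739 gave one of the lowest p-values of that test. At B3 it had 216, 173 and 120 CPM in *C. rattanii* plants 1, 2 and 3, and 4.36, 12.7 and 11.6 CPM in *C. linearis* plants 1, 2 and 3. All *C. rattanii* plants were far above all *C. linearis* plants at B3 (-4.15 ± 0.63 on the log2 scale, SE, edgeR FDR = 0.000276). At B1 the order was the opposite, with a mean of 96.1 ± 63.2 CPM in *C. linearis* and 9.64 ± 2.18 CPM in *C. rattanii* (SD, n = 3, edgeR FDR = 0.00107). The shift of -6.05 ± 0.75 on the log2 scale (SE) had an edgeR FDR of 0.0157.

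RCORA39822 moved the other way. At B3 it had 886, 1021 and 329 CPM in *C. linearis* plants 1, 2 and 3, and 112, 124 and 94.0 CPM in *C. rattanii* plants 1, 2 and 3. The *C. linearis* plants were all higher (2.76 ± 0.48 on the log2 scale, SE, edgeR FDR = 0.000827), whereas the difference was -1.55 at B1 and -1.42 at B2. In *C. linearis* its mean was 55.0, 111 and 745 CPM at B1, B2 and B3, and in *C. rattanii* it was 161, 297 and 110 CPM. The shift was 4.25 ± 0.58 on the log2 scale (SE, edgeR FDR = 0.0207).

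The 19 genes with a function fall into 4 groups: pollen exine formation, xyloglucan metabolism, glycerol-3-phosphate catabolism and regulation of transcription. Further genes with a stated function were not analysed here. The study picked such genes from these same libraries for a species difference that changes over bud development, so their stage patterns are not independent evidence. The identifiers of 10 of them were read from pictures. For all genes tested, the median species difference was 0.02, 0.01 and -0.02 on the log2 scale at B1, B2 and B3.

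**Figure D3:**
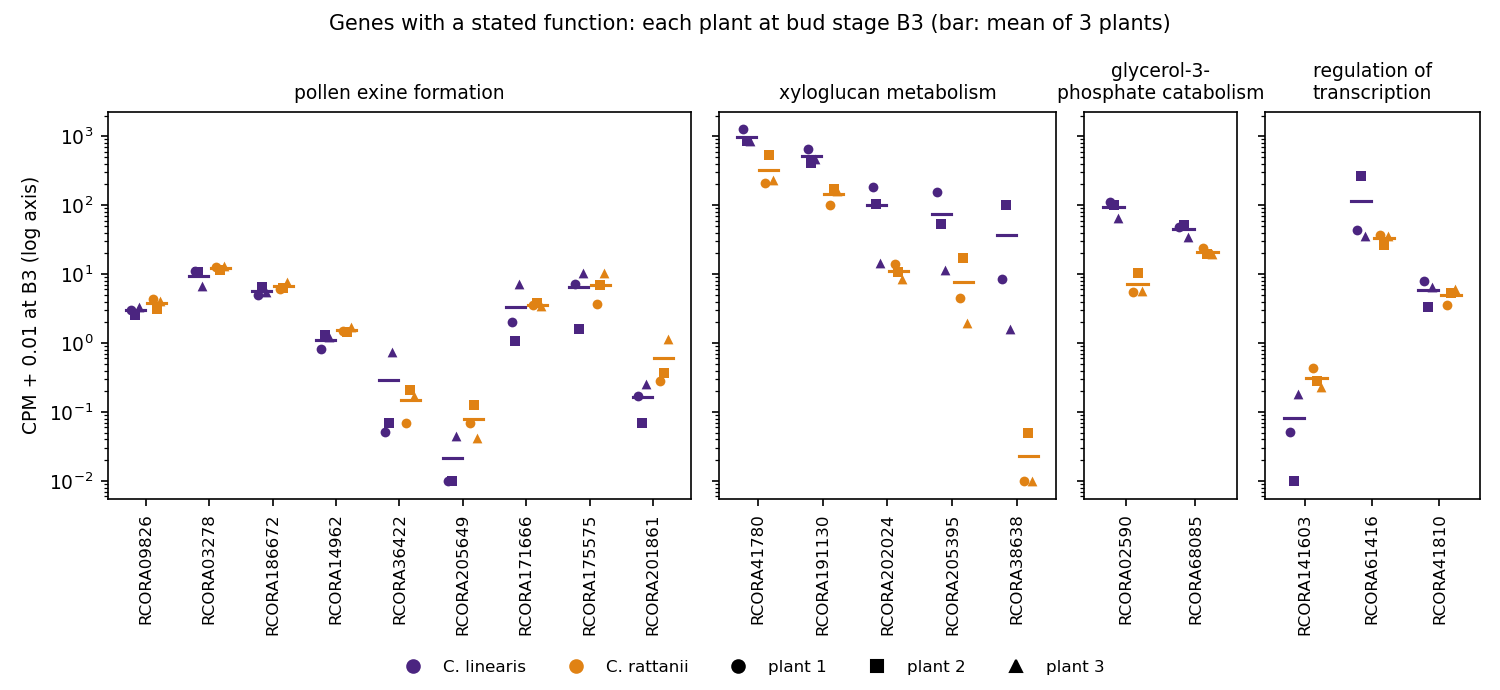
Level of each of the 19 genes with a stated function in each plant at B3. The y axis is CPM plus 0.01 on a logarithmic scale, colour gives the species, the marker gives the plant, and the bar is the mean of 3 plants. In the xyloglucan and glycerol-3-phosphate panels the purple *C. linearis* points lie above the orange *C. rattanii* points, except for 1 gene, RCORA205395, where they overlap. In the exine panel the colours lie close together for the genes above 1 CPM.

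Xyloglucan is a polysaccharide that ties cellulose fibrils together in growing plant cell walls, and enzymes that cut and rejoin it act in cell expansion. Of 5 xyloglucan genes, 1 was called higher in *C. linearis* at FDR 0.01, against 6.95% of all genes tested, and none was called higher in *C. rattanii*. Their median difference was 3.21 on the log2 scale at B3, against -1.41 at B1 and -0.78 at B2. At an FDR of 0.05 edgeR called 4 of them higher in *C. linearis*, against 15.9% of all genes tested, and DESeq2 called all 5 at 0.01, against 14.3%. In the test of B3 against the earlier stages, DESeq2 called 5 of 5, against 3.36% of all genes, and edgeR none at an FDR of 0.01. The study had selected such genes with a DESeq2 test of species by stage on the same libraries. The DESeq2 result is therefore largely built in and is no separate evidence.

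The most abundant was RCORA41780, with 1271, 841 and 847 CPM in *C. linearis* plants 1, 2 and 3, and 211, 535 and 236 CPM in *C. rattanii* plants 1, 2 and 3. The species did not overlap, although *C. rattanii* plant 2 came near the lower *C. linearis* plants (1.59 ± 0.54 on the log2 scale, SE, edgeR FDR = 0.0369, DESeq2 FDR = 0.00977). Its mean was 37.4, 57.2 and 986 CPM at B1, B2 and B3 in *C. linearis*, and 99.2, 318 and 327 CPM in *C. rattanii*. At B2 it was called higher in *C. rattanii* (-2.48 on the log2 scale, edgeR FDR = 0.00401), the opposite of its direction at B3.

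RCORA191130 had 658, 408 and 475 CPM in *C. linearis* plants 1, 2 and 3, and 101, 171 and 161 CPM in *C. rattanii* plants 1, 2 and 3. The lowest *C. linearis* plant was above every *C. rattanii* plant (1.83 ± 0.55 on the log2 scale, SE, edgeR FDR = 0.0207, DESeq2 FDR = 0.00322). RCORA202024 had 187, 104 and 14.5 CPM in *C. linearis* plants 1, 2 and 3, and 13.9, 10.6 and 8.42 CPM in *C. rattanii* plants 1, 2 and 3. *C. linearis* plant 3 lay just above the highest *C. rattanii* plant, and the other *C. linearis* plants were many-fold higher (3.21 ± 0.85 on the log2 scale, SE, edgeR FDR = 0.0121, DESeq2 FDR = 0.000296).

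RCORA205395 had 156, 53.7 and 11.5 CPM in *C. linearis* plants 1, 2 and 3, and 4.53, 16.9 and 1.95 CPM in *C. rattanii* plants 1, 2 and 3. The species overlapped at *C. linearis* plant 3 and *C. rattanii* plant 2 (3.24 ± 1.204 on the log2 scale, SE, edgeR FDR = 0.0529, DESeq2 FDR = 0.00828). Its fitted difference was -3.46 at B1 and -4.35 at B2. The called gene, RCORA38638, had 209, 1739 and 45 counts in *C. linearis* plants 1, 2 and 3, and 0, 1 and 0 counts in *C. rattanii* plants 1, 2 and 3. It was essentially read in *C. linearis* only, and plant 2 held most of its counts. The ratio of summed counts, scaled by library size, was 2553, with an exact 95% interval of 458 to 100900 that covers counting error only. Its edgeR FDR was 0.00588, and the call held in 2 of the 6 fits that left out 1 B3 library, with FDR between 0.00387 and 0.0306.

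Glycerol-3-phosphate is a link between sugar breakdown and the making of membrane and storage lipids, and glycerol-3-phosphate dehydrogenase interconverts it with a sugar intermediate. The 2 genes of this group are putative dehydrogenases of that kind. One was called higher in *C. linearis*, against 6.95% of all genes tested, and DESeq2 called both, against 14.3%. Their median difference was 2.38 on the log2 scale at B3, against -0.33 at B1 and 0.18 at B2.

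RCORA02590 had 112, 102 and 65.7 CPM in *C. linearis* plants 1, 2 and 3, and 5.58, 10.5 and 5.76 CPM in *C. rattanii* plants 1, 2 and 3. All *C. linearis* plants were several-fold above all *C. rattanii* plants, a 12.8-fold difference (3.68 ± 0.50 on the log2 scale, SE, edgeR FDR = 0.000119). The call held in every fit that left out 1 B3 library, with FDR between 0.000259 and 0.00141. Its mean was 18.1, 32.2 and 93.2 CPM at B1, B2 and B3 in *C. linearis*, and 17.9, 21.7 and 7.29 CPM in *C. rattanii*, values not tested over stages here. The shift of the species difference at B3 was 3.38 ± 0.57 on the log2 scale (SE, edgeR FDR = 0.0247, DESeq2 FDR = 2.47e-06).

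RCORA68085 had 48.2, 51.9 and 34.8 CPM in *C. linearis* plants 1, 2 and 3, and 24.3, 19.5 and 19.5 CPM in *C. rattanii* plants 1, 2 and 3. The species did not overlap, and the difference of 1.09 ± 0.28 on the log2 scale (SE) lay just outside edgeR's threshold (FDR = 0.0108) and inside that of DESeq2 (FDR = 0.00129). It was a smaller difference than that of RCORA02590, and the difference between the genes was not tested.

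**Figure D4:**
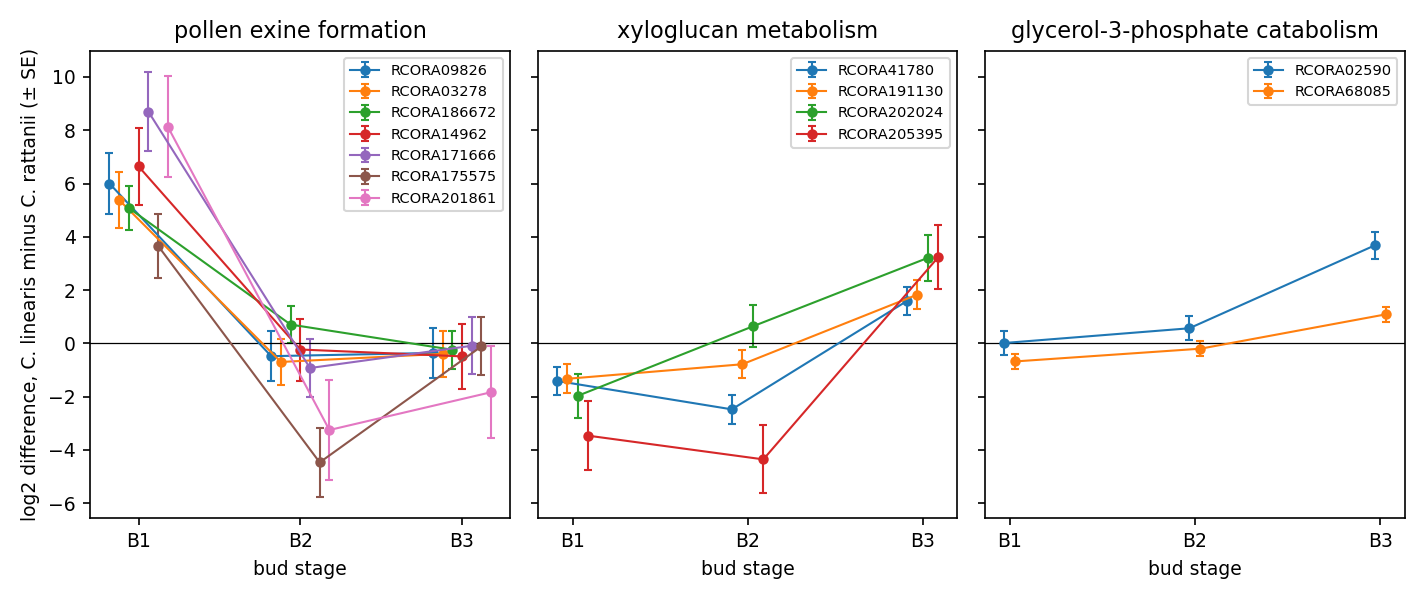
Species difference at B1, B2 and B3 for 13 genes of the exine, xyloglucan and glycerol-3-phosphate groups. The y axis is the log2 difference, *C. linearis* minus *C. rattanii*, each line is 1 gene, points are edgeR estimates and bars are ± SE. Exine genes start between 3.67 and 8.70 at B1 and lie between -1.83 and -0.09 at B3, whereas the xyloglucan genes drawn start below 0 and reach 1.59 to 3.24 at B3. RCORA36422 and RCORA38638 are not drawn, since 1 group of theirs had almost no counts at a stage, and neither is RCORA205649, which was not tested.

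The exine is the outer wall of the pollen grain, built largely of the polymer sporopollenin, and callose forms a temporary wall around young microspores before it. Of the 9 exine genes, 8 were tested and 0 were called at B3 by edgeR, against 15.0% of all genes, or by DESeq2, against 26.2%. With 8 genes, 0 calls is near those shares in edgeR. None of the 8 was under an unadjusted threshold of 0.05 in edgeR, against 43.3% of all genes, and the lowest unadjusted value was 0.304, for RCORA201861. Each gene has 1 estimate of spread for all stages, so the B1 libraries enter these p-values. In B1 buds of *C. linearis* the SD of every tested exine gene was near or above its mean. Missing the threshold therefore does not show equal levels at B3. The median difference of the 8 genes at B3 was -0.30 on the log2 scale, close to the -0.02 of all genes, against 6.32 at B1 and -0.59 at B2.

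RCORA09826, the ortholog of the *Arabidopsis thaliana* gene LAP5, which encodes a chalcone synthase-like enzyme of sporopollenin synthesis, had 3.06, 2.53 and 3.35 CPM in *C. linearis* plants 1, 2 and 3. It had 4.29, 3.12 and 4.07 CPM in *C. rattanii* plants 1, 2 and 3. The species overlapped (-0.36 ± 0.94 on the log2 scale, SE, edgeR FDR = 0.799), at a level far below the mean of 339 ± 329 CPM (SD, n = 3) of *C. linearis* B1 buds. RCORA03278, the ortholog of LAP6, a related enzyme of the same step, had 11.2, 10.6 and 6.70 CPM in *C. linearis* plants 1, 2 and 3, and 12.7, 11.6 and 13.0 CPM in *C. rattanii* plants 1, 2 and 3. The *C. rattanii* plants were all slightly higher, within the spread the model allows (-0.39 ± 0.87 on the log2 scale, SE, edgeR FDR = 0.759).

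No other exine gene was past the threshold. RCORA186672, annotated to sporopollenin synthesis, had 4.98 to 6.58 CPM in *C. linearis* and 6.06 to 7.78 CPM in *C. rattanii*. RCORA14962, annotated to lipid metabolism, had 0.816 to 1.29 CPM in *C. linearis* and 1.46 to 1.70 CPM in *C. rattanii*. Their differences were -0.24 and -0.49 on the log2 scale, with all *C. rattanii* plants higher for RCORA14962. RCORA171666 and RCORA175575, known here only as exine genes, had 1.06 to 10.5 CPM in *C. linearis* and 3.49 to 10.2 CPM in *C. rattanii*, with differences of -0.09 and -0.11 on the log2 scale. The remaining genes were near the limit of detection. RCORA36422, annotated to callose deposition, had 1, 1 and 21 counts in *C. linearis* plants 1, 2 and 3, and 2, 5 and 5 counts in *C. rattanii* plants 1, 2 and 3 (1.08 ± 1.49 on the log2 scale, SE, edgeR FDR = 0.607). RCORA205649, annotated likewise, had 0, 0 and 1 counts in *C. linearis* and 2, 3 and 1 counts in *C. rattanii*, too few to be tested. RCORA201861 had 0.0587 to 0.244 CPM in *C. linearis* and 0.270 to 1.15 CPM in *C. rattanii*, with all *C. rattanii* plants higher. Its difference of -1.83 ± 1.72 on the log2 scale (SE, edgeR FDR = 0.437), or 3.56-fold, was the widest of the exine genes tested.

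The study placed many more genes under regulation of transcription than were followed here, so the genes below do not stand for that group. For the genes below, the study lists regulation of transcription as an additional annotation beside another term, which is not used here. Of the 3 genes followed here, none was called at B3 by edgeR or DESeq2, against 15.0% and 26.2% of all genes. 1 of them, RCORA61416, was under an unadjusted threshold of 0.05 in edgeR, against 43.3% of all genes, so these counts are near the shares over all genes. RCORA41810 had 8.04, 3.29 and 6.53 CPM in *C. linearis* plants 1, 2 and 3, and 3.51, 5.33 and 6.11 CPM in *C. rattanii* plants 1, 2 and 3. The species overlapped at B3 (0.26 ± 0.39 on the log2 scale, SE, edgeR FDR = 0.646). Its fitted direction at B3 flipped to -0.0043 with library totals as the only scaling. Earlier it was called higher in *C. rattanii*, by -2.34 at B1 (edgeR FDR = 0.00101) and -2.66 at B2 (edgeR FDR = 0.00036). The mean was 0.690, 1.01 and 5.95 CPM over B1, B2 and B3 in *C. linearis* and 3.50, 6.41 and 4.98 CPM in *C. rattanii*. The shift of the difference was 2.76 ± 0.50 on the log2 scale (SE, edgeR FDR = 0.0277, DESeq2 FDR = 3.59e-06).

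RCORA61416 had 43.2, 265 and 36.1 CPM in *C. linearis* plants 1, 2 and 3, and 36.9, 26.4 and 35.9 CPM in *C. rattanii* plants 1, 2 and 3. Only *C. linearis* plant 2 stood out, and the species overlapped (1.79 ± 0.78 on the log2 scale, SE, edgeR FDR = 0.0909). RCORA141603 had 1, 0 and 5 counts in *C. linearis* plants 1, 2 and 3, and 14, 7 and 7 counts in *C. rattanii* plants 1, 2 and 3 (edgeR FDR = 0.447).

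Finally, the plants of a species were compared with each other. The SD of log2 CPM over 3 plants had a median of 0.446 among *C. linearis* plants and 0.292 among *C. rattanii* plants, a ratio of 1.53, and it was larger in *C. linearis* for 17921 genes (64.4%). An SD above 1 was found for 21.1% of genes among the former and 11.0% among the latter. By plant, the mean squared deviation from the species mean was 0.288, 0.655 and 0.763 in *C. linearis* plants 1, 2 and 3. It was 0.252, 0.296 and 0.654 in *C. rattanii* plants 1, 2 and 3. The plants of the species overlapped, and no difference was detectable between 3 and 3 plants (two-sided exact permutation test, p = 0.4, smallest possible 0.1). The ratio was 1.08 without *C. linearis* plant 2, 1.05 without *C. linearis* plant 3 and 2.15 without *C. rattanii* plant 3.

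**Figure D5:**
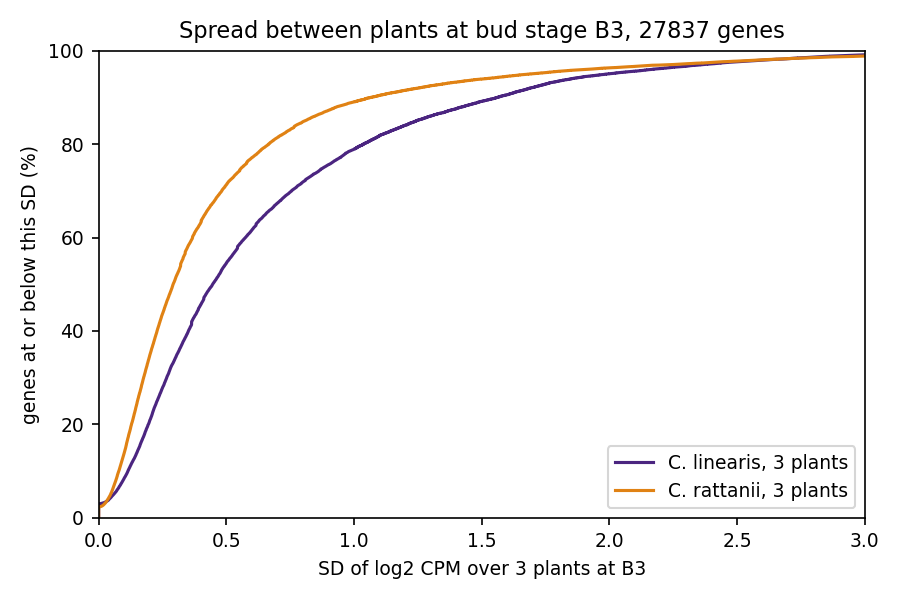
Share of the 27837 tested genes at or below a given spread between plants at B3. The x axis is the SD of log2 CPM over 3 plants, the y axis is the percent of genes, and there is 1 curve per species. The *C. linearis* curve lies to the right of the *C. rattanii* curve over most of the range, with medians of 0.446 and 0.292.

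Expression in 1 plant far above the other plants of its group was seen in both species, in TMM-scaled CPM. The TMM factor of 0.497 raises the CPM of *C. linearis* plant 2. At least 8-fold above both other plants of their group were 7, 370 and 459 genes in *C. linearis* plants 1, 2 and 3. In *C. rattanii* there were 38, 8 and 355 such genes in plants 1, 2 and 3. Thus 2 plants of *C. linearis* and 1 plant of *C. rattanii* carried many genes far above their level in the other plants of the group. Such genes held 3.81% and 1.05% of the counts in *C. linearis* plants 2 and 3, and 1.42% in *C. rattanii* plant 3.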

How the data were processed

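RNA-seq libraries of whole floral buds were made by poly(A) selection with a directional kit. Reads of either species were aligned by the authors with STAR, in 2-pass mode, against the *C. rattanii* genome, and featureCounts assigned them to its gene models. The sources used here do not say whether counting used strand or how it treated reads with several alignments, so genes that overlap or are near-identical are uncertain. The deposited values are raw counts per gene, neither normalized nor filtered. A further 2 library columns matched no single sample and were left out. The organism label names *C. rattanii* throughout, so the species was taken from title and genotype.

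Counts were analysed in R 4.3.3 with edgeR 4.0.16 (filterByExpr, TMM, robust quasi-likelihood F-test), fitting the 6 species-by-stage groups of all 18 libraries. The Benjamini-Hochberg FDR threshold was 0.01. SE was computed from the log2 difference and its F statistic. DESeq2 1.42.0 (Wald test) and limma 3.58.1 (voom) were alternatives. Log2 CPM used a prior count of 2. CPM is not corrected for gene length. No pair of replicate libraries agreed within sampling noise, so none was treated as a duplicate. P-values of the main fit rest on the spread between plants within the 6 groups, estimated jointly over B1, B2 and B3. The same 3 plants per species gave all stages, and the fit treated their libraries as independent.

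Named genes were 19 with a function stated by the study, the 2 with the largest called difference in each direction (at least 10 counts in each B3 library, species not overlapping), those with the lowest p for B3 against earlier stages (at least 10 counts in each library), and the most abundant. The genes and lists were chosen with earlier results of these data known. The groups of abundant genes and of genes abundant in 1 plant were added after their values were seen. Steps were tested on simulated data.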

Additional observations from a re-analysis of the deposited data

How the results depend on the processing

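Counts of called genes at B3 are given as *C. linearis* higher and *C. rattanii* higher, with 1934 and 2234 in the main analysis. They were 4155 and 3476 with DESeq2, 4365 and 4675 with limma-voom and library weights, and 4419 and 4385 at FDR 0.05. They were 1272 and 2222 with library totals only, and 835 and 1125 when all 3 libraries of *C. linearis* plant 2 were left out. With the 6 B3 libraries alone they were 730 and 1084 in edgeR and 4114 and 3782 in DESeq2, and 933 and 1216 when a difference above 2-fold was required. Leaving out 1 B3 library gave 764 to 2139 and 1310 to 1922. RLE normalization, both filters and limma-voom without weights stayed within 1.5 times of the main counts. No alternative called a gene in the direction opposite to its main call, and changes of sign that missed the threshold were not counted. Across species, deviations of plants with the same number correlated at -0.0182, 0.141 and 0.0918, and those of plants with different numbers at -0.128 to 0.0218. Whether same-numbered plants shared a condition was not tested, and the labels do not say. With the replicate number as a fixed term the counts were 1466 and 1843. With the plant as a random block (consensus correlation 0.0122) they were 1682 and 2205. For B3 against the earlier stages (0 in the main analysis), counts were 885 with DESeq2, 4 with limma-voom, 919 with library weights, 4 with the random block, 251 at FDR 0.05, 0 to 42 without 1 B3 library, and 12 without the B1 library of *C. linearis* plant 1, an alternative added after the data were seen. The cause of these shifts was not tested.

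Genes read only in *C. linearis* (107) numbered 193 and 47 at minimums of 5 and 20 counts, and 240 when 1 count per *C. rattanii* library was allowed. Leaving out 1 library, which can only keep or raise these counts, gave 126 to 224, and 464 to 696 for genes read only in *C. rattanii*. The spread ratio was 2.41 (2.405) with library totals only and 1.05 to 2.15 without 1 library. The difference in the share of the 50 most abundant genes ranged from -0.24 (without *C. linearis* plant 2, reversed) to 6.20 points. Of the 31 genes followed one by one, 14 kept direction and call throughout, and 27 never reversed. The 4 that reversed were not called. RCORA41810 was -0.0043 with library totals only and ranged from -0.0129 to 0.54 without 1 library, and RCORA36422 was -0.51 with library weights and ranged from -1.42 to 1.59. RCORA175575 was 0.16 with library weights and 0.39 with all of *C. linearis* plant 2 left out, and ranged from -0.67 to 0.34. RCORA171666 was 0.38 with all of *C. linearis* plant 2 left out and ranged from -1.24 to 0.33.

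At 24713277 or more counts per B3 library, 0 counts in a species allow up to 0.0427 CPM in *C. linearis* and 0.0334 CPM in *C. rattanii*. Counting error and the spread between plants were not separated, and exact tests over plants cannot go below p = 0.1.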
